A study of Oryza sativa with 6 samples.

Results

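Glutathione S-transferases (GSTs) were followed in the roots of rice (Oryza sativa) plants of the line mads61-3, a mutant of the MADS-box transcription factor gene OsMADS61, and of wild-type (WT) plants. Every row of the deposited read count table whose gene symbol begins with GST or OsGST was taken, which gave 70 genes of 36960 features. By the letter after GST in the symbol, 45 genes belonged to the tau class (GSTU), 16 to phi (GSTF), 4 to zeta (GSTZ), 3 to lambda (GSTL) and 1 to theta (GSTT). The remaining gene, Os10g0528200, is listed as GST without a class letter. GST loci that carry no such symbol in the table were not counted among the members.

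GSTs join the tripeptide glutathione to electrophilic compounds, so that herbicides, oxidised lipids and other reactive molecules become more soluble and can be moved into the vacuole. The tau and phi classes are large in plants and hold most of these conjugating enzymes, while zeta enzymes act in the breakdown of tyrosine, theta enzymes reduce organic hydroperoxides, and lambda enzymes exchange thiols. Many tau and phi genes sit next to close copies of themselves, and many respond to stress, metals or hormones.

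RNA was sequenced from 3 mads61-3 and 3 WT root samples. Plants of both genotypes grew hydroponically in a nutrient solution with nitrate at 2.5 mM, with no mycorrhizal fungus. The question was what OsMADS61 does for nitrate transport in such roots. The mutant is represented by 1 line, whose kind of mutation the labels do not give, and nothing in them says that replicates came from separate tanks, so the p-values speak to the variation among these 6 root samples alone, and that variation may be technical. In bulk roots, fewer cells of a type and less RNA per cell cannot be told apart.

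Library totals ran from 24145708 to 34179150 counts, and 3 counts in a library, the upper limit taken for a count of 0, stood for 0.0875 to 0.131 CPM (the usual depth-scaled read count, here over the TMM-scaled library size; counting error only). OsMADS61 itself had 214, 73 and 126 counts in mads61-3 replicates 1 to 3. In the libraries labelled WT replicates 1, 2 and 3 it had 12600, 14468 and 67, so the library labelled WT replicate 3 goes against its label, and every direction below counts it as WT. Of the 3 root genes, LSI1 averaged 2746 ± 1034 CPM in mads61-3 against 1002 ± 556 CPM in WT, LSI2 averaged 2488 ± 1068 CPM against 765 ± 598 CPM, and RCc3 averaged 67.2 ± 10.6 CPM against 395 ± 482 CPM (SD, n = 3 each). EdgeR called 0 of these 3, while DESeq2 called LSI1 and LSI2 higher and RCc3 lower. The groups overlapped at all 3. RCc3 had 28.5 and 216 CPM in WT replicates 1 and 2 and 940 CPM in the library labelled WT replicate 3, on which its WT mean rested. In mads61-3 it had 68.5, 77.0 and 56.0 CPM. Of 6 genes listed under symbols of mycorrhizal genes, AM3 and AM10 had 0 counts in every library, and the phosphate transporter gene PT11 had 19 counts in mads61-3 replicate 3 and 0 elsewhere. AM1, OsAM1 and STR2 had reads in every library, averaging 86.1, 15.3 and 1.408 CPM in mads61-3 against 98.2, 11.7 and 1.92 CPM in WT. The 8 green-tissue genes summed to 37.5, 273 and 136 CPM in mads61-3 and to 34.4, 43.3 and 21.9 CPM in WT, all 7 tested had positive log2 fold changes, and their part in the GST values was not tested.

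The phi gene OsGSTF2 (Os01g0764000, chromosome 1) was the most abundant GST transcript of these roots. Levels of different genes were compared in FPKM, the authors' values scaled to transcript length and library depth. OsGSTF2 had 613, 345 and 456 FPKM in mads61-3 replicates 1 to 3, against 192, 396 and 766 FPKM in WT replicates 1 to 3. Its highest and its lowest value both lay in WT, so the groups overlapped over the whole mutant range. It made up between 23.7% and 55.5% of the summed FPKM of all GST genes, depending on the library.

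The tau gene OsGSTU2 (Os10g0529800, chromosome 10) came next. Its level was 103, 160 and 127 FPKM in mads61-3 and 114, 118 and 85 FPKM in WT, a narrow range in which the groups overlapped. OsGSTU36 (Os01g0949800, chromosome 1) followed at a mean of 67.4 FPKM over the 6 libraries, and its level hung on mads61-3 replicate 1, with 186, 38.4 and 57.0 FPKM in mads61-3 against 58.4, 47.2 and 17.4 FPKM in WT. The order of the next genes was not the same in both genotypes. OsGSTU17 averaged 67.8 ± 10.7 FPKM in mads61-3 and 24.7 ± 7.70 FPKM in WT (SD, n = 3 each). OsGSTZ3 averaged 41.6 FPKM in mads61-3 and 47.5 FPKM in WT, and OsGSTZ1 averaged 46.1 FPKM in mads61-3 and 41.8 FPKM in WT, where both lay above the 41.0 FPKM of OsGSTU36. The 10 genes with the highest mean FPKM held 75.7% to 79.6% of the GST total in each library, although the shares of single genes within it shifted. In all, 19 members averaged at least 10 FPKM, 26 lay between 1 and 10 FPKM, and 25 lay below 1 FPKM.

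**Figure D1:**
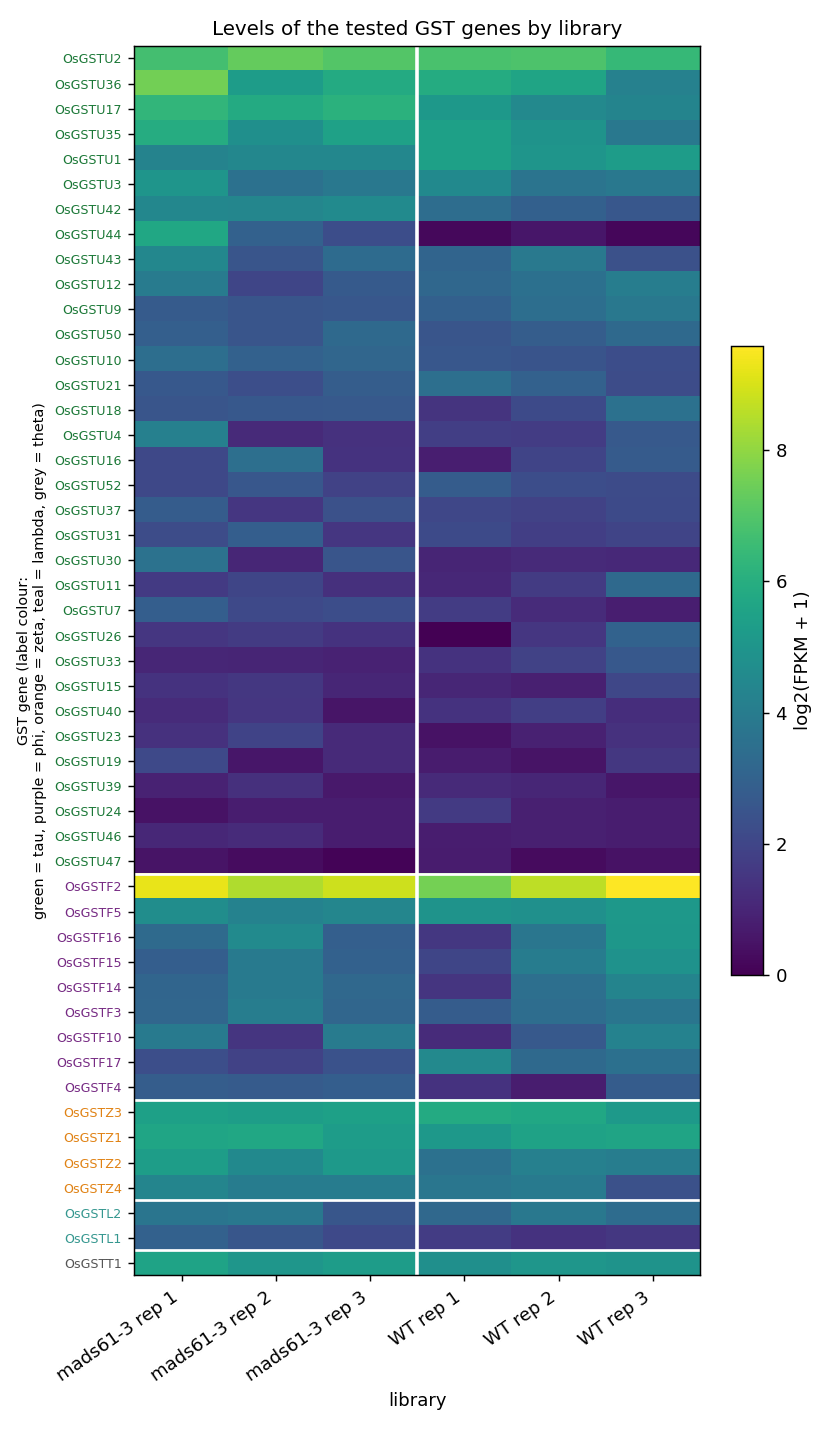
Heat map of log2(FPKM + 1) for the 49 tested GST genes (rows, grouped by class and ordered by mean FPKM) in the 6 root libraries (columns, mads61-3 left of WT). OsGSTF2 is the brightest row in every library, and OsGSTU44 is dark in the 3 WT columns and brighter in the 3 mads61-3 columns.

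Summed over all members, GST reads did not part the genotypes. The sum was 1605, 949 and 1196 CPM in mads61-3 replicates 1 to 3, against 942, 986 and 1383 CPM in WT replicates 1 to 3, with means of 1250 ± 331 CPM and 1103 ± 243 CPM (SD, n = 3 each). Tau genes summed to 651, 357 and 422 CPM in mads61-3 and to 435, 315 and 294 CPM in WT, with overlap. In summed FPKM the tau groups did not overlap, at 685, 421 and 437 in mads61-3 against 399, 354 and 310 in WT. The FPKM sum over all members did overlap, at 1595, 1041 and 1146 in mads61-3 against 808, 1014 and 1379 in WT. For phi genes the sums were 708, 407 and 565 CPM in mads61-3 and 305, 479 and 928 CPM in WT, so the WT libraries alone spanned more than the mutants did. With 3 libraries a side, the smallest two-sided p of an exact permutation test on such a sum is 0.1, so none was run.

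Of the 70 members, 49 had enough counts to be tested. The quasi-likelihood test of edgeR, with p adjusted by Benjamini-Hochberg over all 25531 features tested, called 0 of them higher and 0 lower in mads61-3 at an adjusted p under 0.05. Across all features 1.25% were called, 0.325% higher and 0.924% lower. Taking an unadjusted p under 0.05, 8 members were higher (16.3%) and 5 lower (10.2%), against 7.86% and 8.68% of all features. Limma-voom also called 0 members in either direction, against 0.247% of all features higher and 0.638% lower. DESeq2 called 6 higher and 4 lower of the 57 members to which it gave an adjusted p (10.5% and 7.02%), against 3.96% and 4.76% of all features. In 7 members every mads61-3 library lay above every library labelled WT (14.3%) and in 5 every one lay below (10.2%), beside 11.4% and 11.3% of all features, so these shares were near the background. The filter kept genes that reached the count limit in 3 libraries, whichever group these were in, so the 49 are not a sample of all members.

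The log2 fold changes (mads61-3 over WT) of the tested members ran from -2.03 to 6.17 with a median of 0.10, beside a median of -0.04 over all features. They were positive in 29 members and negative in 20, or 59.2% positive against 47.2% of all features. Without the library labelled WT replicate 3 the median was 0.29, with 33 positive and 16 negative, and without mads61-3 replicate 1 it was -0.03, with 24 and 25. Leaving out WT replicate 1 gave 2 GST calls, both higher, against 0.865% of all features higher and 1.65% lower. The other left-out libraries gave 0 GST calls, against 0.0266% of all features higher and 0.381% lower without WT replicate 2, 0.745% and 2.02% without the library labelled WT replicate 3, 0.0344% and 0.0191% without mads61-3 replicate 2, and 0% both ways without mads61-3 replicates 1 or 3. A sign that held in all 13 alternative settings was found in 28 of the 49, 17 of them positive and 11 negative. The settings reuse the same 6 libraries, so a sign that holds is no independent support. The share over all features was not computed. OsGSTU47 had a value in 11 of the settings and was negative in each of those.

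**Figure D2:**
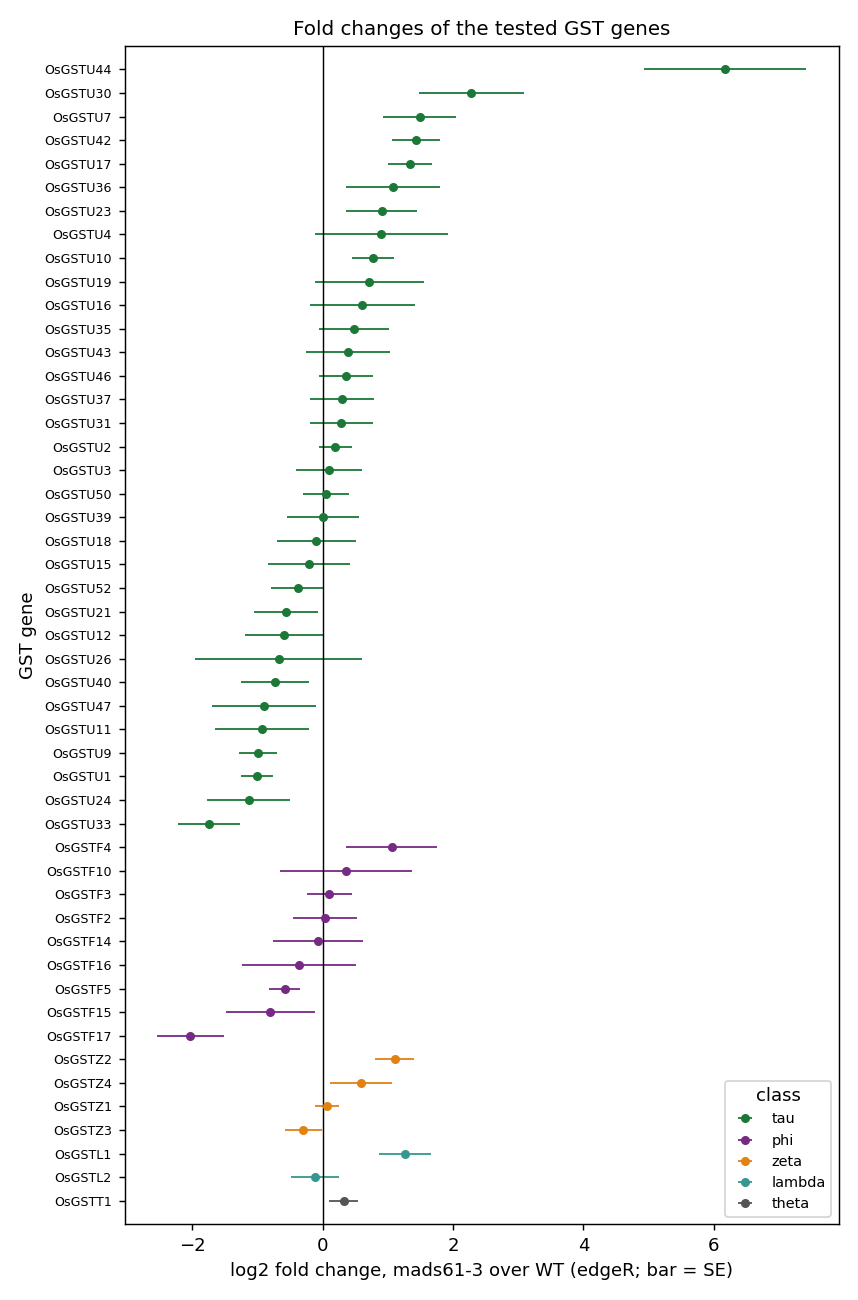
Log2 fold changes of the 49 tested GST genes in mads61-3 over WT (points, edgeR) with their standard errors (bars), grouped by class. OsGSTU44 stands at 6.17, far from the others, which lie between -2.03 and 2.28.

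OsGSTU44 (Os03g0643700, chromosome 3), a tau gene, had by far the widest difference between the genotypes of all GSTs tested. It had 2234, 243 and 138 counts in mads61-3 replicates 1 to 3, against 6, 16 and 5 counts in WT replicates 1 to 3. In CPM these were 65.1, 8.02 and 5.07 in mads61-3 and 0.263, 0.634 and 0.178 in WT. The lowest mutant library lay 8.00-fold above the highest WT library, but the mutant libraries differed among themselves by 12.9-fold, with replicate 1 alone at the top. The means were 26.1 ± 33.9 CPM in mads61-3 and 0.358 ± 0.242 CPM in WT (SD, n = 3 each), a ratio of 72.8. At a log2 fold change of 6.17 (SE 1.24) the gene missed the threshold (edgeR, adjusted p = 0.0689). DESeq2 called it (log2 fold change 6.20, adjusted p = 9.94e-09), and over all alternatives the adjusted p ranged from 9.94e-09 to 0.238. Without mads61-3 replicate 1 the log2 fold change was 4.21 (edgeR, adjusted p = 0.156). The library labelled WT replicate 3 stood with the other WT libraries at this gene, and without it the log2 fold change was 5.84 (edgeR, adjusted p = 0.106). This gene reached the test through its counts in the mutant libraries.

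The tau genes OsGSTU42 and OsGSTU17 and the zeta gene OsGSTZ2 lay higher in every mads61-3 library than in any WT library, by smaller and more even steps. OsGSTU42 (Os01g0950300, chromosome 1) had 18.6, 16.5 and 21.8 CPM in mads61-3, against 10.7, 5.82 and 4.55 CPM in WT. The mutant values stayed close together and did not reach down to WT replicate 1, the highest of its group. Its log2 fold change was 1.43 (SE 0.36; edgeR, adjusted p = 0.118).

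OsGSTU17 (Os09g0467200, chromosome 9) had 77.9, 51.3 and 70.8 CPM in mads61-3, against 39.5, 20.8 and 18.8 CPM in WT. Mutant replicate 2 was the lowest of its group, 1.3-fold above WT replicate 1, so the groups did not overlap. The log2 fold change was 1.34 (SE 0.34; edgeR, adjusted p = 0.120). Without WT replicate 1, the WT library nearest to the mutants at both tau genes, edgeR called both higher, OsGSTU17 with a log2 fold change of 1.76 and OsGSTU42 with 1.87 (adjusted p = 0.0315 for each). Limma on log2(FPKM + 1) also called both, with adjusted p = 0.0460 for OsGSTU17 and 0.0408 for OsGSTU42. DESeq2 did too, with adjusted p = 0.00700 and 0.00461. Each gene was called in 4 of the 13 alternative settings, and the adjusted p reached 0.372 for OsGSTU17 and 0.387 for OsGSTU42 in the others, which include limma-voom, the replicate block and every other left-out library.

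OsGSTZ2 (Os12g0210300, chromosome 12) had 42.4, 21.5 and 38.5 CPM in mads61-3, against 13.7, 17.5 and 16.4 CPM in WT. As at OsGSTU17, mutant replicate 2 was nearest to WT. The log2 fold change was 1.11 (SE 0.30; edgeR, adjusted p = 0.133). DESeq2, alone among the alternatives, called OsGSTZ2 higher (adjusted p = 0.0226). Its neighbour OsGSTZ1 (Os12g0210200) behaved otherwise: its 61.1, 58.2 and 49.3 CPM in mads61-3 overlapped 49.5, 54.1 and 58.0 CPM in WT. Among tested members OsGSTZ1 had the smallest spread over the 6 libraries, 1.24-fold from lowest to highest, and its log2 fold change was 0.06 (SE 0.19; edgeR, adjusted p = 0.904). The 2 other zeta genes stood at log2 fold changes of 0.58 for OsGSTZ4 (SE 0.47) and -0.30 for OsGSTZ3 (SE 0.28). OsGSTZ4 had 24.4, 17.1 and 20.01 CPM in mads61-3, against 18.5, 17.5 and 5.16 CPM in WT, where the library labelled WT replicate 3 was the low one.

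Among the members with lower values in the mutant, OsGSTU1 (Os03g0785900, chromosome 3) was the most abundant of those picked by the fixed rule. It had 18.6, 18.7 and 21.3 CPM in mads61-3, against 50.8, 29.8 and 37.9 CPM in WT. The mutant libraries lay within 1.14-fold of each other and below all WT libraries. Its log2 fold change was -1.01 (SE 0.25; edgeR, adjusted p = 0.105).

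OsGSTF17 (Os05g0148900, chromosome 5), a phi gene, had the lowest log2 fold change of all tested members. Its values were 2.97, 1.82 and 3.30 CPM in mads61-3, against 19.1, 6.14 and 7.86 CPM in WT. All mutant libraries were below all WT libraries, and WT replicate 1 stood well above the rest of its group. The log2 fold change was -2.03 (SE 0.51; edgeR, adjusted p = 0.117), and without WT replicate 1 it was -1.37 (adjusted p = 0.0839).

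OsGSTU33 (Os10g0365200, chromosome 10) was a weakly expressed tau gene with 0.904, 0.759 and 0.808 CPM in mads61-3, against 1.66, 2.26 and 4.41 CPM in WT. The groups did not overlap, and the library labelled WT replicate 3 was the highest. Its log2 fold change of -1.75 (SE 0.48; edgeR, adjusted p = 0.135) was -1.25 without that library. OsGSTU9 (Os10g0529400, chromosome 10) had 5.77, 4.39 and 5.32 CPM in mads61-3, against 7.97, 9.78 and 13.2 CPM in WT, again with no overlap and with the same library on top. Its log2 fold change was -0.997 (SE 0.29; edgeR, adjusted p = 0.157). DESeq2 called all 4 of these lower genes, with adjusted p of 0.00751 for OsGSTU1, 0.00346 for OsGSTF17, 0.0215 for OsGSTU33 and 0.0364 for OsGSTU9. None of the other alternatives called any of them, and their adjusted p reached 0.374, 0.358, 0.429 and 0.467 in that order.

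**Figure D3:**
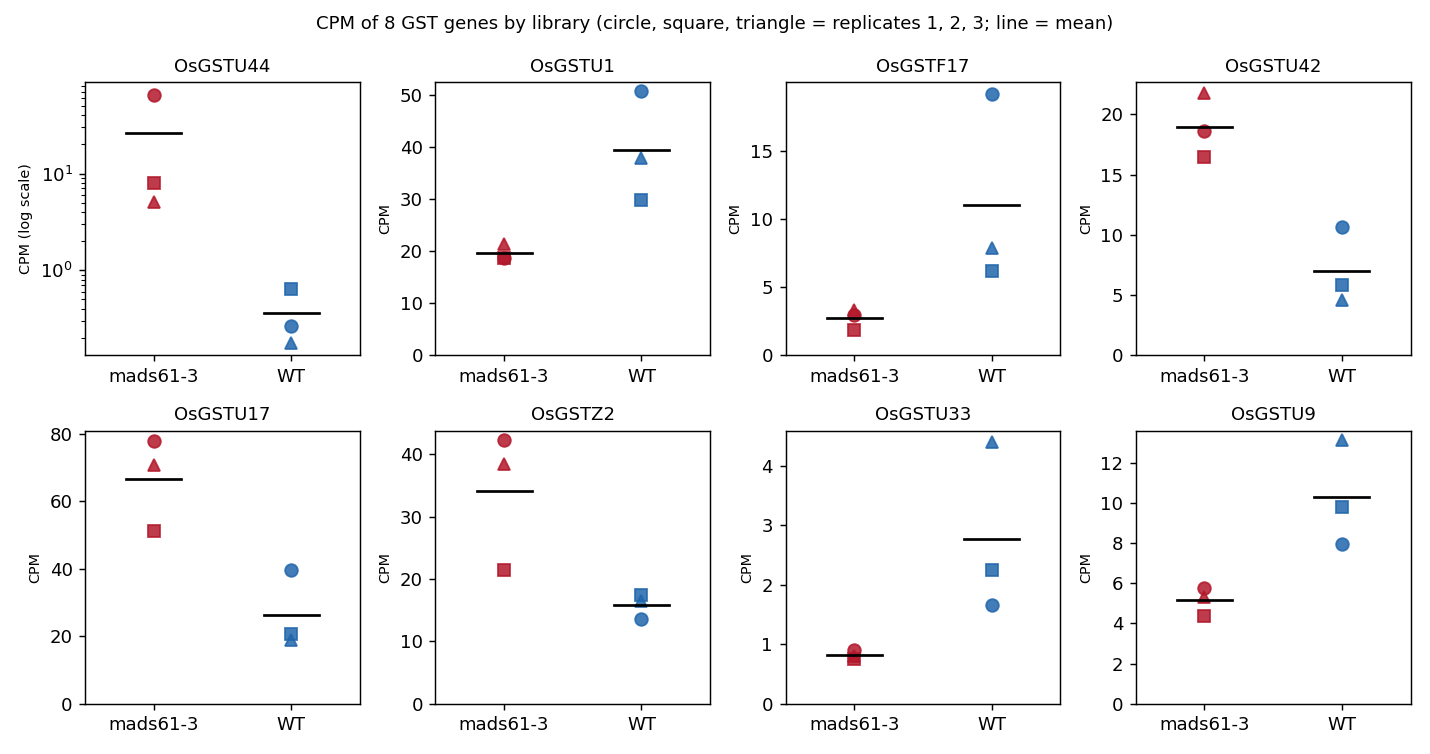
CPM of the 8 GST genes with the lowest unadjusted p in each mads61-3 library (left, red) and each WT library (right, blue), with symbols for replicates 1 to 3 and a line at the group mean. The groups do not overlap in any of the 8 panels, but the genes were picked by low p from these same values, so this adds no support. The OsGSTU44 panel has a log scale, on which mads61-3 replicate 1 is at 65.1 CPM.

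A further 5 members had an unadjusted p under 0.05, and they were chosen for this description after their values were seen. The lambda gene OsGSTL1 (Os03g0283200, chromosome 3) had 7.61, 4.99 and 3.86 CPM in mads61-3, against 2.93, 1.78 and 2.14 CPM in WT (log2 fold change 1.26, SE 0.39; edgeR, adjusted p = 0.177). The tau gene OsGSTU7 had 7.52, 3.66 and 4.77 CPM in mads61-3, against 3.28, 1.505 and 0.925 CPM in WT (log2 fold change 1.49, SE 0.55; edgeR, adjusted p = 0.247). OsGSTU10, also tau, had 10.1, 6.27 and 8.30 CPM in mads61-3, against 6.08, 4.51 and 3.84 CPM in WT (log2 fold change 0.78; edgeR, adjusted p = 0.291). In these 3 genes the groups did not overlap, though OsGSTU10 came within 1.03-fold of doing so. OsGSTU30 did overlap: mads61-3 replicates 1 and 3 stood at 10.3 and 4.52 CPM and replicate 2 at 0.891 CPM, below the 1.09, 1.07 and 1.07 CPM of WT. DESeq2 called OsGSTU30 (adjusted p = 0.0444) and OsGSTL1 (adjusted p = 0.0344) higher, and did not call OsGSTU7, OsGSTU10 or OsGSTF5. The phi gene OsGSTF5 was the only one of the 5 with lower values in the mutant, 22.9, 14.8 and 19.1 CPM against 31.5, 23.8 and 30.1 CPM in WT (log2 fold change -0.59, SE 0.24; edgeR, adjusted p = 0.292).

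By class, edgeR called 0 members in any of them. Of 33 tested tau genes 20 had positive and 13 negative log2 fold changes, with a median of 0.19 that became -0.05 without mads61-3 replicate 1. By unadjusted p under 0.05, 6 tau genes were above WT (18.2%) and 3 below (9.09%), against 7.86% and 8.68% of all features. DESeq2 called 4 higher (10.5%) and 3 lower (7.89%) of the 38 tau genes to which it gave an adjusted p, against 3.96% and 4.76% of all features. Of 9 tested phi genes 4 were positive and 5 negative, with a median of -0.07, 0 above and 2 below WT (22.2%) at an unadjusted p under 0.05, and 0 higher and 1 lower (9.09%) by DESeq2. When single libraries were left out, the phi median depended on the WT libraries more than on the mutants. It was -0.51 without WT replicate 1, with 1 of 9 positive, and 0.61 without the library labelled WT replicate 3, with 6 of 9 positive. It also depended on the method. With all libraries kept it was 0.09 by limma-voom, 0.15 and 0.23 by limma on log2(FPKM + 1) and log2(FPKM + 0.1), and 0.13 with the replicate block. It was -0.08 by DESeq2, -0.04 with upper-quartile scaling and -0.07 with no filter.

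Most members lie in runs of neighbouring loci, taken here as members on 1 chromosome whose locus numbers differ by at most 1000 from the next member. Chromosome 10 held 26 of the 70 genes and chromosome 1 held 20. The longest run, from Os10g0527400 to Os10g0531400, had 20 members, 13 of them tested. Reads of near-identical neighbours may have been split between them in counting, so values of single genes within a run are uncertain.

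A tau run on chromosome 1, from Os01g0949700 (OsGSTU7) to Os01g0950300 (OsGSTU42), had positive log2 fold changes in all 5 tested members, from 0.29 (OsGSTU37) to 1.49 (OsGSTU7). Of all features 47.2% were positive. The summed values of the 5 genes were 246, 71.4 and 119 CPM in mads61-3 and 119, 73.0 and 34.2 CPM in WT. Mads61-3 replicate 1 had the highest value in 4 of the 5 and the library labelled WT replicate 3 the lowest in 4 of the 5. The groups were apart only at OsGSTU7 and OsGSTU42, both higher in mads61-3, beside 11.4% of all features. OsGSTU36, the most abundant gene of the run, had 169, 31.6 and 53.8 CPM in mads61-3, against 62.8, 41.4 and 15.6 CPM in WT, with overlap (log2 fold change 1.09, SE 0.72; edgeR, adjusted p = 0.513). Without mads61-3 replicate 1 the median of the run was 0.24, against 1.09 with all libraries, and 4 of 5 were positive. The sixth member, OsGSTU41, had at most 11 counts in a library and was not tested.

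The phi run on chromosome 3, from Os03g0134900 (OsGSTF14) to Os03g0135300 (OsGSTF3), varied mainly among the WT libraries. Its 4 genes summed to 30.9, 59.4 and 32.1 CPM in mads61-3 and to 15.1, 46.2 and 88.2 CPM in WT. WT replicate 1 was the lowest library for all 4, and the library labelled WT replicate 3 was the highest for 3 of them. OsGSTF16 spanned 14.2-fold within WT, with 1.53, 8.24 and 21.7 CPM, and 3.07-fold within mads61-3, with 5.95, 14.0 and 4.55 CPM. OsGSTF2 and OsGSTF10, phi genes elsewhere on chromosome 1, also had WT replicate 1 as their lowest and the library labelled WT replicate 3 as their highest. The run's median log2 fold change (edgeR) was -0.22 with all libraries, -0.72 without WT replicate 1 and 0.50 without the library labelled WT replicate 3. With all libraries kept it was 0.08 by limma-voom, 0.14 and 0.20 by limma on log2(FPKM + 1) and log2(FPKM + 0.1), and 0.15 with the replicate block. It was -0.23 by DESeq2, -0.18 with upper-quartile scaling and -0.21 with no filter. Its sign thus depended on the WT library left out and on the method.

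In the long run on chromosome 10, 8 of the 13 tested members had positive and 5 had negative log2 fold changes, with a median of 0.10. Neighbours differed in which library was high. OsGSTU4 (Os10g0528300) had 17.6, 1.16 and 1.73 CPM in mads61-3, against 3.06, 2.34 and 5.59 CPM in WT, a 15.3-fold spread within the mutant that came from replicate 1. OsGSTU3, at the next locus, had 30.2, 9.84 and 13.5 CPM in mads61-3 and 26.0, 11.3 and 12.8 CPM in WT, where replicate 1 was the highest library of each group. Tau genes under these names were described in rice roots as induced by heavy metals and low oxygen. OsGSTU26 had 0 counts in WT replicate 1, 57 in WT replicate 2 and 240 in the library labelled WT replicate 3, beside 78, 73 and 57 counts in mads61-3. The groups were apart in 2 of the 13 genes, OsGSTU10 (higher in mads61-3) and OsGSTU9 (lower). Of all features 11.4% were apart and higher and 11.3% apart and lower.

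**Figure D4:**
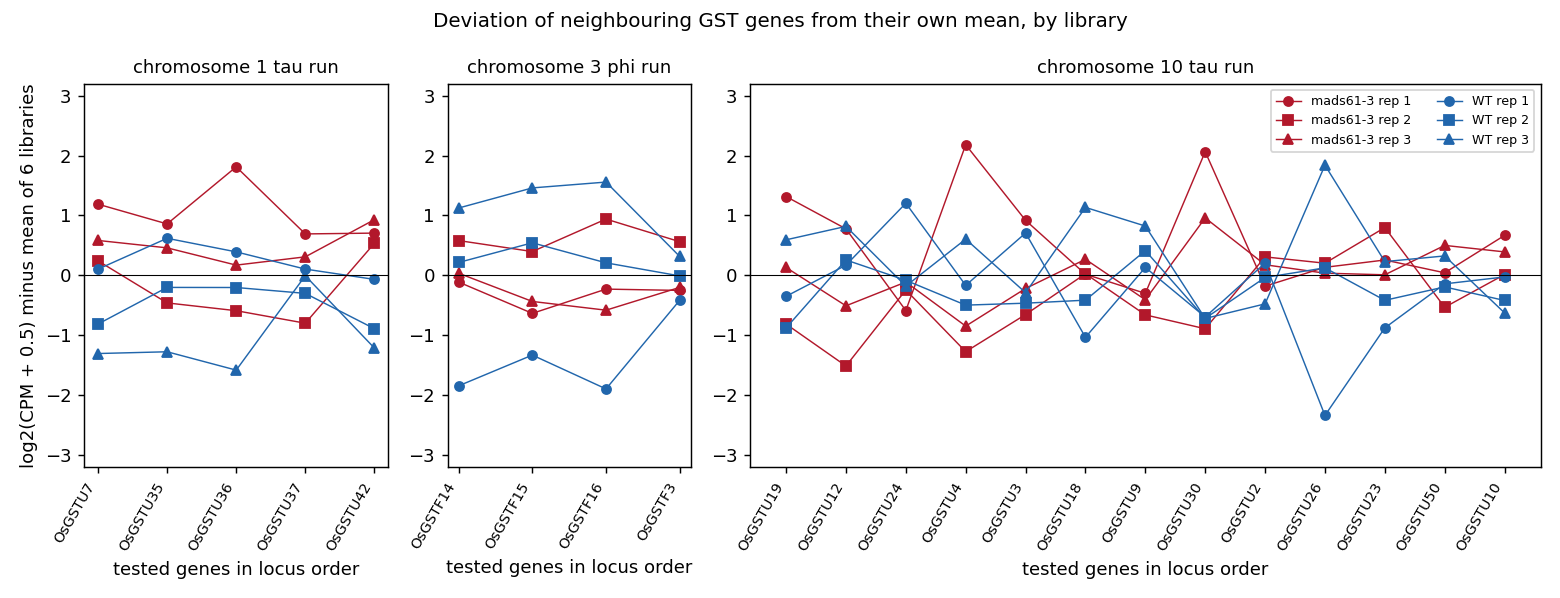
Deviation of each library from the gene's own mean over 6 libraries, as log2(CPM + 0.5), for tested GST genes in locus order in the tau run on chromosome 1, the phi run on chromosome 3 and the long tau run on chromosome 10 (red, mads61-3; blue, WT). Lines join the values of a library; WT replicate 1 is the lowest line and WT replicate 3 the top line over most of the chromosome 3 run, and mads61-3 replicate 1 peaks at OsGSTU36, OsGSTU4 and OsGSTU30.

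Mads61-3 replicate 1 was the library in which GST genes most often peaked. It held the highest CPM for 17 of the 49 tested members (34.7%), beside 11.2% of all features. Mads61-3 replicates 2 and 3 held the highest value for 6 and 3 members. WT replicates 1 and 2 did so for 9 and 2, and the library labelled WT replicate 3 did so for 12. At the low end, mads61-3 replicate 2 was the lowest library for 12 members (24.5%), beside 11.7% of all features. WT replicate 1 was the lowest for 12 (24.5%, beside 26.6%) and the library labelled WT replicate 3 for 13 (26.5%, beside 26.7%), both near the share of all features. The median member differed by 1.95-fold between the lowest and the highest mads61-3 library and by 2.52-fold between those of WT. OsGSTU4, OsGSTU44, OsGSTU30 and OsGSTF10 had the widest spreads within mads61-3, at 15.3-, 12.9-, 11.5- and 9.28-fold.

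**Figure D5:**
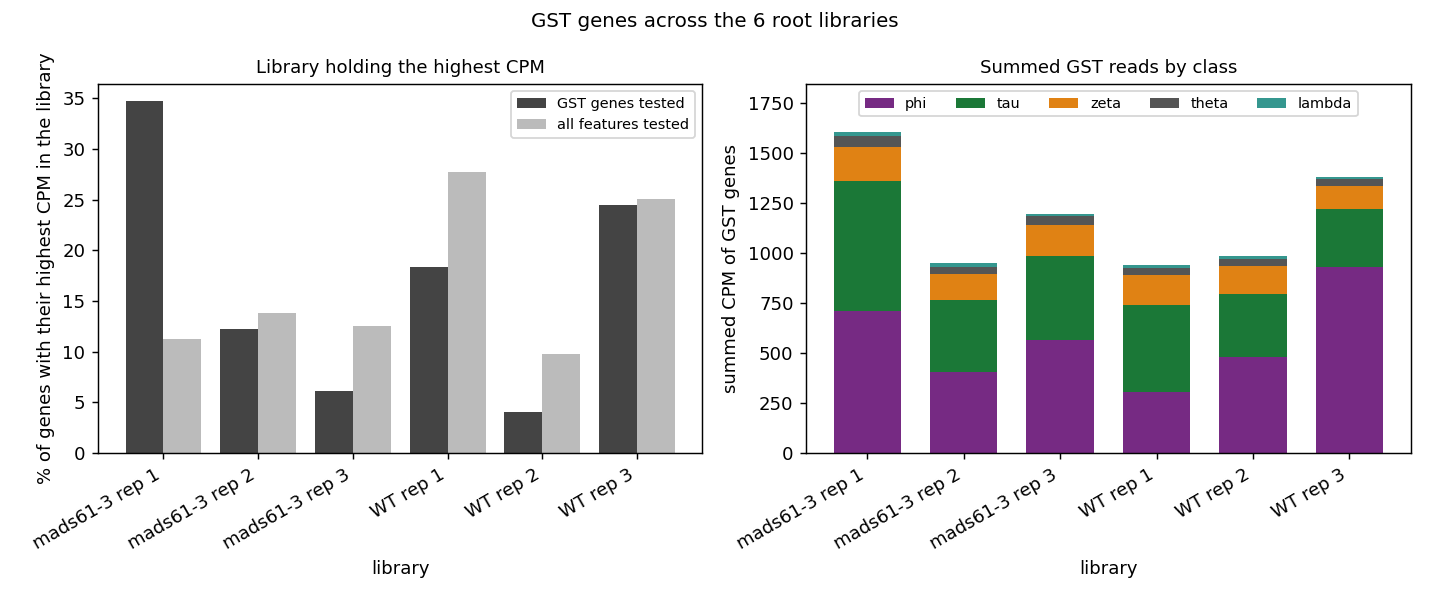
Left, percent of the 49 tested GST genes (dark bars) and of all 25531 tested features (light bars) whose highest CPM lies in each library. Right, summed CPM of GST genes by class in each library, from 942 CPM in WT replicate 1 to 1605 CPM in mads61-3 replicate 1.

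Besides OsGSTL1, the lambda class had OsGSTL2 (log2 fold change -0.11, SE 0.37), with 14.6, 13.7 and 6.20 CPM in mads61-3 and 12.2, 14.8 and 10.4 CPM in WT. The theta gene OsGSTT1 had 52.7, 33.2 and 46.1 CPM in mads61-3 and 36.0, 35.8 and 33.6 CPM in WT (log2 fold change 0.32, SE 0.22; edgeR, adjusted p = 0.526). Its WT libraries lay within 1.07-fold of each other, and mutant replicate 2 lay just below them.

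The 21 members not tested comprised 4 with 0 counts in every library (OsGSTF8, OsGSTF13, OsGSTL3 and OsGSTU28) and 17 with 1 to 90 counts over all 6 libraries together. OsGSTF7 had 9, 9 and 8 counts in mads61-3 and 0, 0 and 5 in WT. OsGSTU48 reached 55 counts in the library labelled WT replicate 3, the highest count among them, beside 0 and 3 in WT replicates 1 and 2 and 20, 3 and 9 in mads61-3. The gene listed as GST had 2, 2 and 0 counts in mads61-3 and 0, 0 and 19 in WT. With no filter on low counts edgeR called 0 of the 66 members that had any count, with 9 above and 4 below WT by unadjusted p under 0.05. Over all 32335 features of that fit, 2379 were above and 2404 below WT by the same limit.

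Genes around glutathione were counted in 8 lists. Of these, 7 were tied to its synthesis, recycling, use or sulfur supply, with the ascorbate enzymes of the ascorbate-glutathione cycle included. The other list held thioredoxins and catalases, which act beside glutathione in redox balance. Over all 8 lists 4 of 95 tested members fell and 0 rose in mads61-3 (edgeR), or 4.21% lower, beside 0.924% of all features. In the ascorbate-glutathione cycle, which removes hydrogen peroxide, 0 rose and 2 of 18 fell, both of them genes of ascorbate enzymes. OsMDAR5, a monodehydroascorbate reductase gene, had 55.3, 49.95 and 46.2 CPM in mads61-3, against 211, 285 and 179 CPM in WT (log2 fold change -2.16, SE 0.25; edgeR, adjusted p = 0.0208). OsAPx7, an ascorbate peroxidase gene, had 45.8, 41.1 and 37.4 CPM in mads61-3, against 133, 163 and 124 CPM in WT (log2 fold change -1.76, SE 0.21; edgeR, adjusted p = 0.0215). Both were steady within each group, the library labelled WT replicate 3 included.

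Glutaredoxins, small proteins that reduce disulfides with glutathione, had negative log2 fold changes in 17 of 19 tested members, with a median of -0.32. Their share with positive values was 10.5%, against 47.2% of all features. By edgeR 1 of them fell, GRX6 (Os01g0667900), with 11.4, 7.20 and 13.1 CPM in mads61-3 against 79.4, 53.3 and 39.9 CPM in WT (log2 fold change -2.44, SE 0.35; adjusted p = 0.0356). Among 11 tested glyoxalases, which clear methylglyoxal with glutathione, 1 fell, OsGLYI6 (log2 fold change -1.63, SE 0.23; edgeR, adjusted p = 0.0326), and the list's median was 0.17. These 4 calls were lost without WT replicate 2, without any single mads61-3 replicate and with the replicate number as a block, where edgeR called 0 of the 95 each time. Few features of any kind were called in these settings. EdgeR called 107 without WT replicate 2, 0, 14 and 0 without mads61-3 replicates 1, 2 and 3, and 81 with the block, against 319 with all libraries.

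In the other lists edgeR and limma-voom called 0 members. Glutathione synthesis was represented by OsECS, its first enzyme, at 109 ± 5.58 CPM in mads61-3 and 130 ± 16.9 CPM in WT (log2 fold change -0.25; edgeR, adjusted p = 0.584). The 5 glutathione peroxidases had a median of 0.05, with OsGpx1 at 0.15 and OsGpx2 at -0.05, and 0 at an unadjusted p under 0.05 or by DESeq2. For 15 ABC class C genes, a family that pumps glutathione conjugates into the vacuole, the median was 0.17, with MRP1 at 0.17 and OsABCC7 at -1.18. By unadjusted p under 0.05, 3 of them were above WT and 3 below (20% each, against 7.86% and 8.68% of all features), and DESeq2 called 1 higher and 2 lower (6.67% and 13.3%, against 3.96% and 4.76%). The 8 genes of sulfate uptake and cysteine synthesis had a median of 0.15, with OsATPS at -1.14 and OsSAT at -0.89, 1 above and 2 below WT by unadjusted p under 0.05 (12.5% and 25%) and 0 by DESeq2. The 18 thioredoxins and catalases had a median of 0.03, with TRXH at -0.996 and OsTRXh5 at -0.02, 1 above and 2 below WT by unadjusted p under 0.05 (5.56% and 11.1%), and 0 higher and 1 lower by DESeq2 (5.56%).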

How the data were processed

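Per the labels' protocols, root RNA was taken up in Trizol and a Hieff mRNA kit was used for the libraries. The deposited count table holds whole-number read counts per feature, not normalised. The deposited FPKM table holds the authors' fragments per unit of feature length and of depth. Per the submitters' processing notes, the tools were HISAT2 2.0.5 and StringTie 1.3.3, with SAMtools 0.1.18, Picard 1.41, FastQC 0.11.9 and CASAVA 1.8.2. Those notes name a human build for what are rice locus numbers. Which rice build and counting program served, and whether strand was used, is not given in the sources used here. No coordinates are printed, chromosomes come from the locus identifiers, and reads of overlapping or antisense genes cannot be told apart.

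The deposited mutant columns carry mads61 and a number, taken as the replicate number within line mads61-3. Genotypes were compared with edgeR 4.0.16 under R 4.3.3, by its two-sided quasi-likelihood test with TMM scaling, robust estimation, the default count filter (minimum count 10, minimum total 15) and the group as the only term. A call needed an adjusted p under 0.05. Standard errors are the size of the log2 fold change over the square root of F. DESeq2 1.42.0, limma 3.58.1 (voom, and log2(FPKM + 1) or log2(FPKM + 0.1) for features averaging at least 0.5 FPKM), upper-quartile scaling, no filter, a replicate block and leaving out each library were alternatives. The edgeR procedure was tested on counts simulated from the spread of these data. It called 53 of 100 genes changed 4-fold and 96 of 100 changed 16-fold in the right direction, and 7 unchanged genes. The changed genes were drawn from well-counted ones, so weakly expressed genes were not covered. All simulated libraries of a group shared 1 mean, so a library that goes against its label was not covered either. OsMADS61 itself, at a log2 fold change of -6.40, was not called (edgeR, adjusted p = 0.129). It was called by DESeq2 (adjusted p = 0.000819) and by edgeR without the library labelled WT replicate 3 (-6.99, adjusted p = 0.00746). A gene not called may thus still differ by 4-fold or more. The named genes were the members called by edgeR, the 8 with the lowest unadjusted p and the 4 with the highest mean FPKM. From each glutathione-related list, every called gene or else the 2 most abundant were named. Members and lists were chosen with earlier results of these data known.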

Additional observations from a re-analysis of the deposited data

How the results depend on the processing

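Over all features edgeR called 319 genes, DESeq2 2481 (1127 higher and 1354 lower, against 83 and 236) and limma on log2(FPKM + 0.1) 486, and leaving out single libraries gave 0 to 724. Of the GST members, 0 were called, against 10 in DESeq2, 2 in limma on log2(FPKM + 1), 2 on log2(FPKM + 0.1) and 0 to 2 with a library left out. The settings with 0 GST calls had 4 to 9 members higher and 4 to 6 lower at an unadjusted p under 0.05, of 49 to 66 tested. Over all features these settings had 1195 to 2420 higher and 1361 to 2661 lower at that limit, of 25531 to 32335 tested. The median GST log2 fold change was 0.10, against 0.26 on log2(FPKM + 0.1) -0.031 without mads61-3 replicate 1 and -0.031 to 0.29 over all left-out libraries. Of the 95 glutathione-related genes tested 4 were called, against 10 of 96 in DESeq2 and 0 to 5 of 95 with a library left out. With the replicate number as a block, edgeR called 81 genes in all, 0 GST members and 0 related genes. Same-numbered libraries did not pair (r = 0.14, 0.25 and -0.22 for deviations from the group means across genes, which are not independent replicates). OsGSTF2 changed sign without WT replicate 1 (-0.29), WT replicate 2 (-0.07) and mads61-3 replicate 1 (-0.19), over a range of -0.29 to 0.61. The cause of these differences was not tested. The 21 members below the count filter had at most 90 counts over all libraries.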
